A study of Rattus norvegicus with 18 samples.

Results

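The lesioned striata of 3 L-DOPA + R rats were compared with the lesioned striata of 3 L-DOPA rats, to ask at which CpGs the methylation of the dopamine-denervated striatum differed when Riluzole had been given together with L-DOPA. These 6 striata were taken by their labels from the 18 striata of 9 rats that were sequenced. All rats were juvenile male Wistar rats with a unilateral injection of 6-OHDA, a toxin of dopamine neurons, into the left medial forebrain bundle at postnatal day 21. The L-DOPA rats were given L-DOPA at 6 mg/kg together with benserazide at 15 mg/kg, which keeps L-DOPA from being converted before it reaches the brain, 6 times between postnatal days 35 and 49 and once more on day 53, when the striata were collected. The L-DOPA + R rats received 6 mg/kg Riluzole in addition, in a Tween solution. Untreated (UNT) rats with the same lesion received saline, and their striata are given beside the comparison. No group received Riluzole without L-DOPA, so the comparison is of Riluzole on top of L-DOPA. The replicate numbers stand for different rats in the different treatments. The data hold DNA methylation alone, so the tissue label could not be checked against the expression of striatal marker genes.

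Methylation of the cytosine in a CpG is copied when cells divide, and dense CpGs at gene starts are mostly free of it. The striatum receives dopamine from the midbrain and glutamate from the cortex, mostly on medium spiny neurons, and repeated L-DOPA after loss of the dopamine input leads to involuntary movements in this model. Riluzole lowers glutamate transmission and blocks sodium channels. In RRBS, DNA is cut with MspI at CCGG, and after bisulfite treatment an unmethylated cytosine is read as T and a methylated cytosine as C. The methylation level is the percentage of reads with C. In whole striatum it is a mean over neurons and glia, and a change in cell proportions and a change within a cell type cannot be told apart.

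Between 18714958 and 26345473 cytosine calls were listed for a L-DOPA lesioned striatum and between 20094079 and 25846139 for a L-DOPA + R lesioned striatum. The median coverage of the cytosines with at least 10 reads was 15 to 17 reads. On the unmethylated spike-in, 0.301 to 0.470% of the calls were C in L-DOPA and 0.467 to 0.563% in L-DOPA + R. All 6 striata shared 377092 CpGs of rn6 once the strands had been merged. A difference is given in percentage points, L-DOPA + R minus L-DOPA, from the summed reads of a group, and mean ± SD is over 3 rats. A differentially methylated site (DMS) is a CpG with a Benjamini-Hochberg q under 0.01 in the chi-square test of a logistic model that was corrected for overdispersion.

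At 107 CpGs the methylation of the lesioned striatum differed between L-DOPA + R and L-DOPA, which was 0.0284% of those tested. L-DOPA + R rats had the lower level at 62 DMS (0.0164% of the tested CpGs) and the higher at 45 (0.0119%). The differences were large. The median size was 39.1 points over all DMS, 35.9 points over the lower and 45.5 points over the higher, against 2.47 points over all tested CpGs. At 95 of the DMS it was at least 20 points, which 1.41% of the tested CpGs reached. The 3 rats of one group did not overlap the 3 of the other at 106 of the 107 DMS, while 7.09% of the tested CpGs had groups without overlap. The DMS were chosen by a test on these same striata, so their size and lack of overlap follow in part from the choice. The last CpG called had a q of 0.00944 by the chi-square test, and the first one left out differed by -24.0 points with a q of 0.0112.

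The number of DMS rests on the test. The F test called 0 CpGs, and 4488 (1.19%) had an unadjusted p under 0.05. With the overdispersion held at 1 or more, this test also gave fewer than 5% in simulated CpGs without any difference. The share is therefore not to be held against 5%. limma on log2 ratios of methylated to unmethylated reads called 7 CpGs, of which 2 were lower and 5 higher with Riluzole, and 24428 (6.48%) had an unadjusted p under 0.05 there. In the chi-square test 25209 CpGs (6.69%) had an unadjusted p under 0.05. Without the correction for overdispersion 729 CpGs were called, 360 lower and 369 higher, and without L-DOPA + R replicate 2 there were 50 lower and 67 higher, so that the lower sites were not the more frequent in these fits or under limma. Without L-DOPA + R replicate 3 the number of DMS was 187, and without L-DOPA replicate 2 it was 166. In the 6 fits that each left out a striatum, 43 of the 107 DMS were called every time (19 lower, 24 higher), and 2 were called in none.

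The mean methylation over all 377092 CpGs was 47.7 ± 0.719% in L-DOPA + R rats (SD, n = 3) and 48.4 ± 0.439% in L-DOPA rats. The L-DOPA + R striata lay at 48.0, 46.8 and 48.1% and the L-DOPA striata at 48.9, 48.0 and 48.5%, so the groups overlapped (exact permutation test, two-sided, p = 0.3; 3 against 3 cannot go below 0.1). Weighted by reads, the difference was -5.23 points in place of -0.789, with the L-DOPA + R striata at 40.1 to 45.6% and the L-DOPA striata at 47.5 to 49.2%. Over CpGs for which each group had 2 or more striata it was -1.92 points.

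At 22 DMS (20.6%) no methylated read was found in any of the L-DOPA striata, and at 18 (16.8%) none was found in any of the L-DOPA + R striata, shares near the 18.8 and 17.7% of all tested CpGs. Both groups were at or under 5% at 3 DMS and at 29.7% of the tested CpGs, so these shares count unlike sites. Among the group means, 24 DMS were at or under 5% in L-DOPA + R and between 5 and 95% in L-DOPA, as were 2.73% of the tested CpGs, and 29 were the other way round, as were 2.18%. At 37 DMS both groups lay between 5 and 95%, as at 47.2% of the tested CpGs. At 9 DMS L-DOPA lay at 95% or above and L-DOPA + R below it, against 4.95% of the tested CpGs, and at 4 L-DOPA + R lay at 95% or above and L-DOPA below it, against 4.41%. One CpG went from under 5% in L-DOPA to over 95% in L-DOPA + R. The mean level over both groups was between 20 and 80% at 65.4% of the DMS and at 24.0% of the tested CpGs. Of the DMS 5.61% had 5 or more tested CpGs within 100 bp, and of all tested CpGs 22.7% had.

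**Figure D1:**
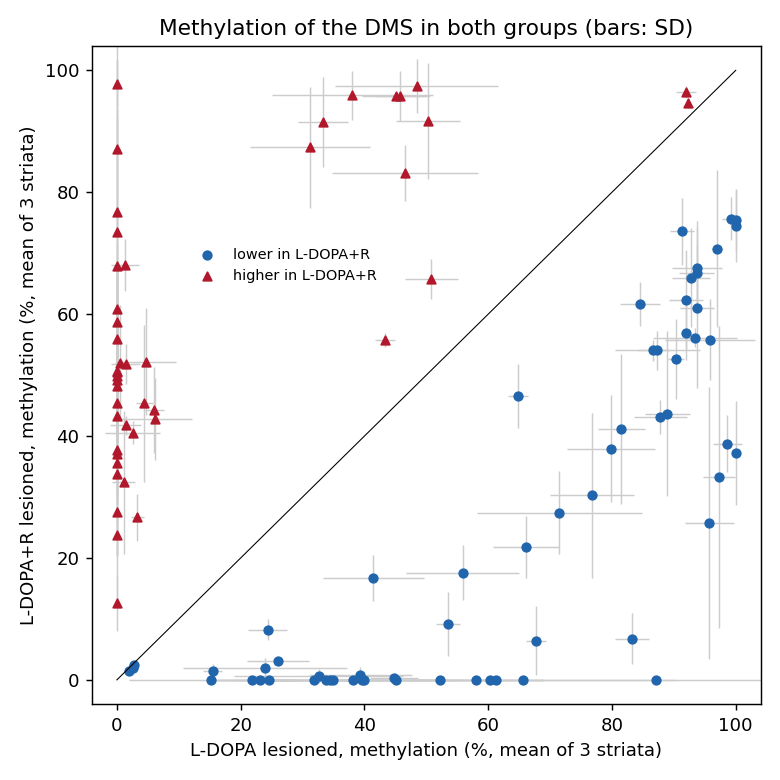
Methylation of the 107 DMS in percent, with the mean of the 3 L-DOPA lesioned striata on the x axis and of the 3 L-DOPA + R lesioned striata on the y axis. Circles are the 62 DMS lower and triangles the 45 DMS higher in L-DOPA + R, grey bars are SD, and many points lie on the axes, where one group had no methylated read.

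The largest difference was found at chr6:123715243. Methylation was 100, 93.3 and 100% in the L-DOPA + R striata, from 15 to 25 reads each, and 0% in each of the L-DOPA striata, from 24 to 30 reads each. All reads were from the forward strand, the CpG lies 50 bases past another called cytosine, and the difference was 98.2 points (chi-square test, q = 1.37e-33; limma, adjusted p = 0.00085). The control striata of the same rats gave 80, 100 and 100% with Riluzole and 0% in each L-DOPA rat. No UNT striatum had this CpG at 10 or more reads. The site could not be tested once cytosines 50 bases past another were left out.

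The DMS with the smallest p among the lower ones was chr1:199636834, to which no gene name was given. The L-DOPA + R striata had 0, 0 and 1.14% and the L-DOPA striata 46.1, 40.4 and 47.9%, a difference of -44.9 points (chi-square test, q = 1.66e-31). The control striata of these rats had 0, 0 and 0% and 43.8, 44.1 and 46.8%, so the levels of both sides were close. UNT rats did not sit with either group here, with 81.9, 35.7 and 0% on the lesioned and 83.5, 36.0 and 2.26% on the control side.

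At chr3:15238472 the L-DOPA + R striata had 56.6, 54.5 and 38.5% and the L-DOPA striata 0% each. At chr5:14793651 they had 54.5, 60 and 41.5% and the L-DOPA striata 0, 0 and 1.52%. At both sites all L-DOPA + R rats lay between 38.5 and 60%, and the UNT rats were spread from 0.8 to 95.7% at the former and from 2.19 to 84.3% at the latter. At chrX:60303005, for which UNT rats had no value, the pattern was turned around, with 100% in each L-DOPA striatum and 46.8, 34.0 and 30.8% in L-DOPA + R. Together with chr6:123715243, chr1:199636834, chr16:14837517 and the Ggt7 site described below, these 3 CpGs were the 7 that limma also called at an adjusted p under 0.01, and each of the 7 was called in all 6 fits that left out a striatum.

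On chromosome 16, 2 of the DMS with the smallest p were higher in L-DOPA + R. At chr16:14831126 methylation was 71.0, 70.0 and 63.2% against 0, 0 and 3.85%, and at chr16:14837517 it was 50, 61.5 and 56.1% against 0% in each L-DOPA striatum. The UNT lesioned striata were at 3.12, 0 and 0% and at 0% each, on the side of L-DOPA. At chr10:77931839 the order was the opposite, with 0% in each L-DOPA + R and each UNT striatum and 45.5, 65.0 and 63.6% in L-DOPA. At chrY:3059918 the L-DOPA + R striata had 45, 34.8 and 50% and the UNT striata 50, 51.9 and 56.9%, while no methylated read was found in L-DOPA. The L-DOPA + R rats thus stood apart from UNT at these 2 sites of chromosome 16, and the L-DOPA rats at these sites of chromosomes 10 and Y.

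At 4 DMS the mean coverage differed by 3-fold or more between the groups, which 0.128% of the tested CpGs did. At chr2:124192081 the L-DOPA + R striata had 2.30, 7.36 and 10.6% from 174 to 231 reads and the L-DOPA striata 84.6, 85.0 and 80% from 13 to 20 reads. At chr1:148470139 the L-DOPA + R striata had 60, 47.2 and 50.9% from 30 to 57 reads and the L-DOPA striata 89.8, 89.4 and 91.8% from 160 to 206 reads. At chr12:30439494, where the coverage differed by less than 3-fold, the L-DOPA + R striata had 0, 9.68 and 9.68% from 30 to 31 reads and the L-DOPA striata 67, 66.7 and 69.6% from 69 to 112 reads, while the UNT lesioned striata had 2.95 to 3.25% from 4030 to 5815 reads. The part of the coverage in these differences was not tested.

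At 3 further sites no methylated read was found in any of the L-DOPA striata. At a site of an unplaced Y contig (position 9461023) the L-DOPA + R rats had 90, 100 and 71.4% and the UNT rats 93.2 and 100% in the 2 striata measured. At chr18:59591826 the L-DOPA + R rats had 93.3, 45 and 92%, and at chr5:152547567 they had 42.3, 67.3 and 93.9%, so that the rats of this group were far apart. At 3 others none was found in any of the L-DOPA + R striata. At chr19:52622673 the L-DOPA rats had 61.5, 100 and 100%, at chr11:29640388 they had 46.8, 56.2 and 93.6%, and at chr4:148931972 they had 58.3, 33.3 and 65%. The sites of chromosomes 18, 5 and 19 and that of chromosome 11 at 29640388 were called in 2 or 3 of the 6 fits that left out a striatum. At chr10:101534020 the L-DOPA + R rats had 0, 2.27 and 0% and the L-DOPA rats 30.4, 46.9 and 40.7%, and UNT rats lay with the latter at 49.5, 42.2 and 68.6%. At chr10:15015118 the L-DOPA + R rats had 100, 95.7 and 91.7% and the L-DOPA rats 41.9, 45.5 and 50%, and at chr16:51026603 they had 52.4, 48.3 and 54.8% against 4.17, 0 and 0%. The UNT lesioned striata at this last site had 55.2, 0 and 0%, so that UNT rat 1 lay close to the L-DOPA + R rats.

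Gene names were read from the annotation that the study gives to its own sites, without any of its values and in a copy in which a list was shortened. Of the 107 DMS, 71 were found in this copy. Of these, 20 had a gene name, 14 lower and 6 higher in L-DOPA + R, and 51 had none. No rn6 annotation was used here, so the share of all tested CpGs in genes was not measured. Introns were named for 14 DMS, exons for 7 and promoters for 6.

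Of the genes named for the DMS in this copy, Arf6 was the only one with more than 1 DMS. It encodes a small GTPase that controls endosomal recycling and the actin cytoskeleton beneath the plasma membrane, and acts in dendritic spines. All 4 of its DMS were lower in L-DOPA + R and were given to both its promoter and an exon. Together with Mab21l3 and the long non-coding RNA Cb707485 it made up the genes with a DMS in the promoter, and the 250 bases before the start of the former pair are shown because they differ widely in CpG content. The sequences are from RefSeq, build GRCr8, chr6:93589527-93589776 on the plus strand and chr2:191960205-191960454 on the minus strand, and capitals mark the MspI sites CCGG at which RRBS fragments begin. No promoter of Cb707485 was matched.
Arf6: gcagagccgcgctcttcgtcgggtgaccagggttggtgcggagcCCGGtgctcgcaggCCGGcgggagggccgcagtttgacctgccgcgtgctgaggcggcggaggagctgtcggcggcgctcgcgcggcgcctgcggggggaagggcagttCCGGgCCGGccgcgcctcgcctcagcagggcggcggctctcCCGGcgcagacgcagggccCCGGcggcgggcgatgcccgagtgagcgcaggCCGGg
Mab21l3: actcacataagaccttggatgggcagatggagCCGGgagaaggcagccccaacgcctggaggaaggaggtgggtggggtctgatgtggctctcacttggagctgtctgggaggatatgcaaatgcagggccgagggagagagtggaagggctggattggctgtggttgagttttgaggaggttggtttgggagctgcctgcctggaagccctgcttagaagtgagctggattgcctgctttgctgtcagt
The Arf6 sequence holds 39 CpGs and 7 CCGG sites, and 1.43% of the 33469 promoters of the same length in the table held as many CpGs. The Mab21l3 sequence holds 3 CpGs and 1 CCGG site, which reads the same on both strands and was found at least once in 46.2% of the promoters. The DMS have rn6 positions and were not placed on these sequences.

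At the first Arf6 DMS, chr6:91697132, no methylated read was found in the L-DOPA + R striata, from 18, 43 and 50 reads. The L-DOPA striata had 46.2, 23.1 and 32.1% from 26, 13 and 28 reads, a difference of -35.8 points (chi-square test, q = 4.74e-09). The neighbouring DMS at 91697134 had 0, 0 and 2.04% against 43.8, 17.4 and 36.7%. At 91697254 the L-DOPA + R striata were at 0% each and the L-DOPA striata at 26.2, 25.0 and 14.3%, and at 91697734 they were at 2.78, 3.03 and 3.28% against 22, 24.4 and 31.7%. At each of the 4 sites every L-DOPA rat lay above every L-DOPA + R rat. Only the first was called in all 6 fits that left out a striatum, and none of the 4 passed in limma, where the adjusted p lay between 0.0731 and 0.509. With the strand as a term the site at 91697734 was not called. With each strand on its own 91697134 was not called and 91697132 was not tested. Without cytosines 46 to 50 bases past another, 91697254 was the only one of the 4 that stayed called, 91697134 and 91697734 were not called and 91697132 was not tested.

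From the first Arf6 DMS on, 16 CpGs were tested, the 4 DMS included, and 10 were lower in L-DOPA + R. Of the 12 that were no DMS, 5 were without overlap, against 7.09% of all tested CpGs, and the same 5 had an unadjusted p under 0.05 in the chi-square test, against 6.69%. Neighbouring CpGs share reads, and the stretch was chosen by its DMS. Over the summed reads of these 16 CpGs the level was 1.05, 1.19 and 2.66% in L-DOPA + R and 17.6, 10.6 and 12.4% in L-DOPA. Of the 13 CpGs tested within 1000 bp before the first DMS, 1 had an unadjusted p under 0.05, and the highest level of any striatum there was 14.3%. A run of 5 CpGs between 91697332 and 91697620 within the stretch was at or under 7.14% in all 6 striata, so the difference was not continuous. The UNT lesioned striata had 1.46, 2.64 and 15.6% over the 16 CpGs, so that UNT rat 3 lay with the L-DOPA rats and UNT rats 1 and 2 with the L-DOPA + R rats. The control striata of L-DOPA + R rats had 1.11, 2.16 and 0.847%, those of L-DOPA rats 24.9, 17.3 and 6.54% and those of UNT rats 1.09, 2.06 and 11.7%. The same rats were thus raised on both sides, and the level differed between rats within UNT.

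**Figure D2:**
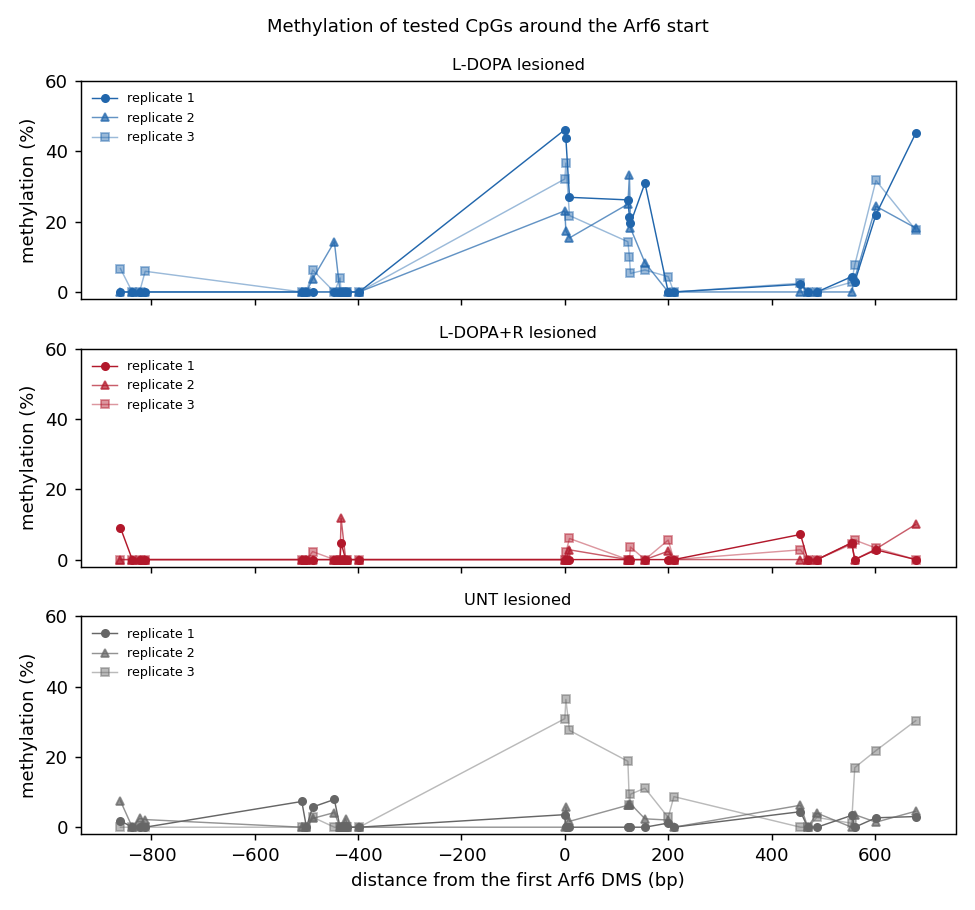
Methylation in percent of the 29 tested CpGs around the Arf6 start against the distance in bp from the first Arf6 DMS, one panel for each group of lesioned striata and one line for each rat. The 3 L-DOPA rats and UNT replicate 3 rise from the first DMS on, while the 3 L-DOPA + R rats and UNT replicates 1 and 2 stay low, and lines only join neighbouring tested CpGs.

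The other named genes had a single DMS each. Tiam1, an exchange factor that activates the GTPase Rac1 and shapes dendritic spines, had a higher level in an intron (chr11:29986999), with 66.7, 30.8 and 47.1% in L-DOPA + R against 0% in each L-DOPA striatum (+47.6 points; chi-square test, q = 1.56e-07). The UNT lesioned striata were also at 0% each. Ncs1, a neuronal calcium sensor, had a lower level in an intron (chr3:10577268), with 56.2, 54.5 and 57.6% against 93.9, 100 and 86.4% (-37.2 points; q = 0.000257 by the chi-square test). It was called in 2 of the 6 fits that left out a striatum, and UNT rats had 89.8, 88.9 and 34.5%. Tiam1 and Ncs1 were the members with a DMS in a list of 22 synapse and plasticity genes. The share of all tested genes with a DMS was not measured, and the lists were made with earlier results known, so the count does not set synapse genes apart.

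Lower sites were also found in introns of Prkcb, Rap1gap and Ptpa. Prkcb, a protein kinase C isoform, had 23.8, 16.0 and 25.6% in L-DOPA + R and 62.5, 72.2 and 63.6% in L-DOPA in an intron (chr1:192552434), and UNT rats had 69.5, 50.9 and 53.3%. Rap1gap, which turns off the GTPase Rap1, had 0% in each L-DOPA + R striatum and 16.7, 29.4 and 23.1% in L-DOPA in an intron (chr5:156069605). Its forward strand was kept in L-DOPA + R alone, and the reverse strand differed by -22.2 points. The Rap1gap site was not called with each strand on its own or with the strand as a term, and it was called in 2 of the 6 fits that left out a striatum. Ptpa, an activator of protein phosphatase 2A, had 4.76, 45 and 50% against 97.1, 94.7 and 100% in an intron (chr3:8998228), where UNT rats were spread over 59.5, 20 and 100%. The Ptpa site was also called in 2 of these 6 fits, and not with each strand on its own, with CpGs of 2 of 3 striata or without cytosines 46 to 50 bases past another.

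Ptges, Pla2g5 and Bag3 had 1 DMS each. Ptges, which makes prostaglandin E2, was higher in L-DOPA + R in an intron (chr3:9734873), with 52.6, 61.1 and 68.8% against 0% in each L-DOPA striatum (+60.4 points; chi-square test, q = 2.01e-10). Pla2g5, a secreted phospholipase A2, was lower in an exon (chr5:157248813), with 40.0, 45.5 and 44.0% against 91.9, 83.3 and 88.2%. Bag3, a co-chaperone of Hsp70 in selective autophagy, was lower in an intron (chr1:199962655), with 0% in each L-DOPA + R striatum and 36.8, 56.5 and 26.3% in L-DOPA. The UNT lesioned striata had 40.8, 41.7 and 0% at Ptges, 95, 90 and 74.3% at Pla2g5, and 56.4, 0 and 0% at Bag3.

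Further lower sites were in introns of Tmem132d and Cdh13, in the promoter of Mab21l3 and in Ppp1r18 and Dhx16. At Cdh13, a cadherin anchored to the membrane by a lipid, the level was 0% in each L-DOPA + R striatum and 12.8, 30.4 and 30.8% in L-DOPA (chr19:51472325), and the site was called in 3 of the 6 fits that left out a striatum. The Mab21l3 site (chr2:204255609) had 0% in each L-DOPA + R and each UNT striatum and 40.0, 46.7 and 16.7% in L-DOPA. At Tmem132d (chr12:32004776) the L-DOPA + R and UNT striata were again at 0% and the L-DOPA striata at 56.2, 57.9 and 66.7%. The site chr20:3379398, given to an intron of Ppp1r18 and an exon of Dhx16, an RNA helicase of splicing, was 59.9 points lower. It had 33.3, 41.7 and 41.2% in L-DOPA + R and 96.0, 100 and 100% in L-DOPA. The UNT lesioned striata had 64.4, 40 and 100% there, and 19.6, 18.6 and 11.1% at the Cdh13 site.

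Further higher sites were found in Ggt7, C4a and Notch4, Ppil1 and Cb707485. Ggt7, of the gamma-glutamyltransferase family, had 91.4, 75 and 54.1% in L-DOPA + R against 0% in each L-DOPA striatum from 50 to 87 reads (chr3:151012138; +73.1 points; limma, adjusted p = 0.00938). The UNT rats had 42.7, 82.4 and 39.0%. The site given to an intron of C4a, a complement component, and an exon of Notch4, a receptor of cell-to-cell signalling, had 29.4, 55.6 and 62.5% against 0% each (chr20:4350026). Ppil1, a prolyl isomerase of the spliceosome, had 29.7, 34.0 and 43.1% against 0% each (chr20:6793842), and Cb707485 had 25.0, 26.3 and 20% against 0% each (chr20:3534263). The UNT lesioned striata had 61.0, 50 and 26.7% at the site of C4a and Notch4. They had 52.9, 22.9 and 0% at Ppil1 and 38.6, 42.3 and 39.3% at Cb707485. In this set of 6 higher gene sites, every L-DOPA striatum was without a methylated read.

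**Figure D3:**
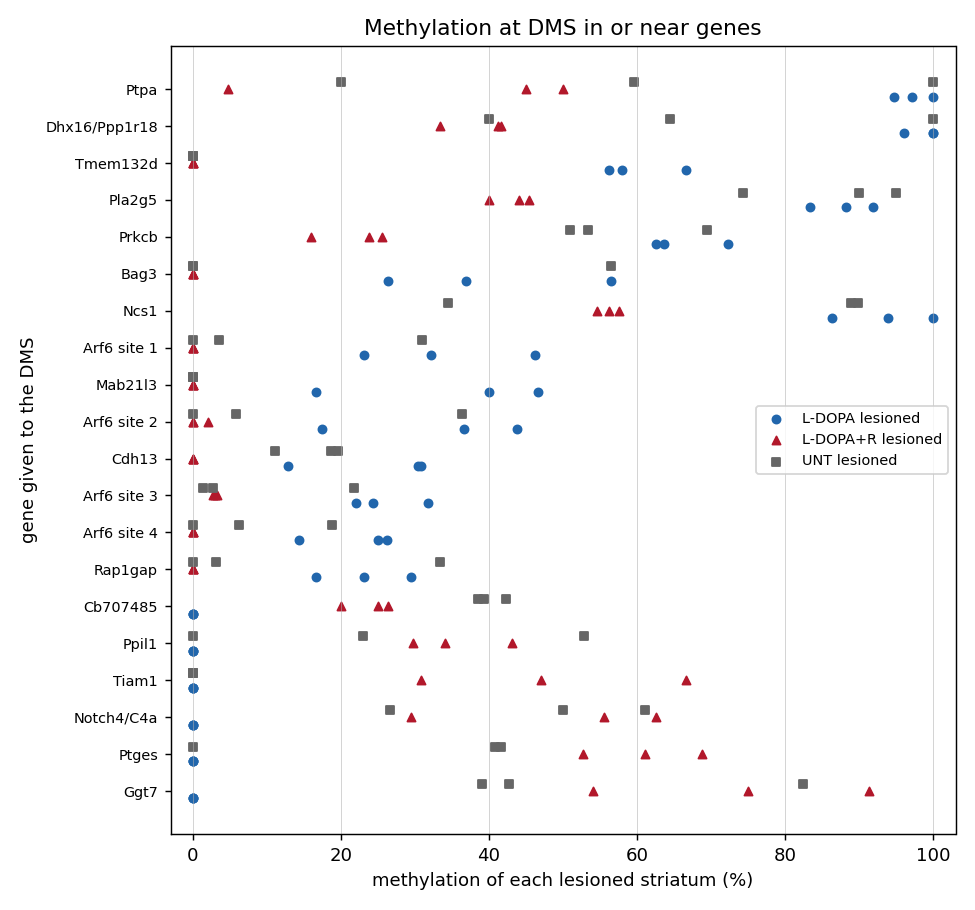
Methylation in percent of each lesioned striatum at the 20 DMS with a gene name, sorted from the most negative to the most positive difference. Circles are L-DOPA, triangles L-DOPA + R and squares UNT striata, 3 of each; the treated groups are apart at every site, while the UNT squares often spread across both.

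Glutamate receptors, auxiliary AMPA receptor subunits, the ion channels that Riluzole acts on, voltage-gated calcium channels, dopamine signalling, cAMP enzymes, activity-regulated genes, the DNA methylation machinery, imprinted genes and the marker lists of striatal cell types held no DMS by name. In all, 230 genes of 18 lists were looked up, and Tiam1 and Ncs1 were those with a DMS. The number of tested CpGs in each list was not measured, 36 DMS were not found in the annotation, and the copy of it used here was shortened, so a DMS in other list genes could have been missed.

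Reads of both strands were compared next, because a strand enters a CpG only with at least 10 reads. At 23 DMS (21.5%) a strand was kept in one group alone, against 5.70% of the tested CpGs. At 8 of these the shared strand differed by less than 5 points, at 9 by 20 points or more, and 7 were called when each strand was tested on its own. At chr6:54997590 the level was 28.3, 22.2 and 29.5% in L-DOPA + R and 2.38, 3.03 and 4.44% in L-DOPA. Its forward strand was kept in L-DOPA + R alone and was methylated at 100%, while the reverse strand had 4.07% in L-DOPA + R against 3.33% in L-DOPA. The DMS 50 bases away at 54997640 went the other way, with 0% on the forward strand of L-DOPA + R and 100 and 99.1% on the reverse strand. The difference at these paired sites was therefore not present on the strand that both groups share.

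The other 84 DMS had the same strands in both groups, 53 of them lower and 31 higher in L-DOPA + R, and 79 were called with the strand as a term of the model. Of the named genes above, Rap1gap and Ppil1 were the only ones among the 23. The reverse strand of the Ppil1 site had 35.7% in L-DOPA + R against 0% in L-DOPA. Of all DMS, 27.1% followed another called cytosine of their strand at a distance of 46 to 50 bases, against 13% of the tested CpGs, and 17 of the 23 DMS with an unshared strand were among them.

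Pairs of DMS at most 100 bp apart were found 5 times. In Arf6 and at chr1:181770694 and 181770700 both members were lower in L-DOPA + R, and the first of the latter was the 1 DMS with overlapping groups, at 0% in each L-DOPA + R striatum and 23.7, 0 and 22% in L-DOPA. In the other 3 pairs the members moved in opposite directions. At chr18:38412909 the L-DOPA + R striata had 66.5, 62.2 and 68.7% against 46.1, 54.4 and 51.9%, and 21 bases on, at 38412930, they had 8.54, 6.33 and 9.79% against 27.8, 21.5 and 23.8%. Both sites had over 100 reads in each striatum, from the reverse strand. At chr8:119361041 methylation was 39.4 points higher and at 119361090 it was 32.7 points lower, where the shared reverse strand had 86.7% in L-DOPA + R against 86.8% in L-DOPA.

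CpGs at most 100 bp apart were also joined to regions of at least 3 CpGs. Of 49979 regions 76 were called (0.152%), 54 lower and 22 higher in L-DOPA + R. Without L-DOPA + R replicate 3 there were 157, without L-DOPA replicate 2 there were 134, and with at least 20 reads there were 29. None of the 76 had overlapping groups, against 10.1% of all regions without overlap. The regions were chosen by a test on the same striata, so this too follows in part from the choice. The median size of the called regions was 18.4 points, and 57 of them held no DMS. The region with the smallest p, chr3:8820935-8820951, had 74.6, 80.5 and 74.3% in L-DOPA + R and 98.5, 96.4 and 95% in L-DOPA over 4 CpGs, none of them a DMS. The Arf6 region chr6:91697132-91697141 had 0, 0.833 and 2.68% against 39.3, 18.4 and 30.9%. Others among the lower were chr10:51455151-51455198 (-23.1 points), chr10:8888828-8888874 (-27.7 points) and chrX:60302980-60303015 (-9.97 points). Among the higher were chr20:46083776-46083826 (+1.69 points from 3513 to 8093 reads a striatum), chr3:15238472-15238510 (+18.7 points), chr17:19540286-19540323 (+20.8 points), the Ggt7 region chr3:151012123-151012258 (+23.2 points) and a region of an unplaced Y contig (+34.1 points). A read that covers several CpGs is counted at each of them. When the reads of a region were divided by its number of CpGs, the Arf6 region alone was called (chi-square test, q = 0.000203), and with the F test no region was called, with 1080 (2.16%) at an unadjusted p under 0.05.

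The mitochondrial genome held 3 DMS at small differences and high coverage. At position 8883 methylation was 1.40, 1.60 and 1.46% in L-DOPA + R and 1.98, 1.95 and 1.84% in L-DOPA, from 24542 to 33550 reads. At 12761 it was 2.06, 1.92 and 1.91% against 2.70, 2.40 and 2.52%, and at 12875 it was 2.53, 2.35 and 2.31% against 2.87, 2.82 and 2.76%. The groups did not overlap at these sites, on either side of the brain. limma called none of these 3 DMS (adjusted p = 0.905, 0.905 and 0.946). They were called in 3, 5 and 3 of the 6 fits that left out a striatum. The UNT lesioned striata had 2.24, 2.36 and 2.38% at 8883 and 2.69, 2.59 and 2.69% at 12761. Levels of this size are not far above the C calls on the unmethylated spike-in. Of the 17 mitochondrial CpGs tested, 7 were lower in L-DOPA + R, and 6 were without overlap (35.3%, against 7.09% of all tested CpGs), of which 3 were lower and 3 higher. Over the summed reads of the 17 CpGs the level was 0.914, 0.893 and 0.871% in L-DOPA + R and 0.976, 0.942 and 0.931% in L-DOPA. The differences at the DMS were -0.429 to -0.584 points. The C calls on the unmethylated spike-in went the other way, with 0.467, 0.563 and 0.510% in L-DOPA + R and 0.301, 0.470 and 0.395% in L-DOPA.

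The control striata of the same 6 rats were used to see whether the differences were particular to the lesioned side. Of the 107 DMS, 92 were present in all 6 control striata. The direction was the same at 80 of these, and at 60 the control striata were also without overlap in that direction, against 4.23% of the 303723 CpGs present on both sides. Without regard to direction, 7.16% of the CpGs tested on the control side were without overlap. On the control side 100 CpGs were DMS (0.0264%), 41 of them among the 92. The median size at the 92 sites was 38.6 points on the lesioned and 29.2 points on the control side, and at 27 sites the control side had less than 50% of the lesioned difference. Of all 250284 CpGs with a difference other than 0 on both sides, 52.8% had the same direction. Of the 3562 CpGs that differed by 20 points or more on the lesioned side, 68.6% did, with a median size of 8.44 points on the control side. Since the sites were chosen on the lesioned side, a smaller size on the control side follows in part from the choice, and the sides share their rats.

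Among the 84 DMS with shared strands, 72 were present on the control side, 66 had the same direction and 55 were without overlap there. Among the 23 others, 20 were present, 14 had the same direction and 5 were without overlap. The treatment by side interaction was tested at 303723 CpGs. It was called at 2 (0.000658%), of which 1 was a DMS, and 6.12% had an unadjusted p under 0.05. Among the 92 DMS, 24 had an unadjusted p under 0.05. These sites were chosen on lesioned values that the interaction also uses, so their share follows in part from the choice. The interaction model takes the striata of a rat as independent. With a term for each rat as the replicate block, both CpGs were called again together with 3 that were no DMS, which made 5 in all, and 26 of the 92 DMS had an unadjusted p under 0.05. Neither model called a difference between the sides at the other DMS among these 92, and the DMS not present in all control striata were not tested.

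The UNT lesioned striata were measured at 99 of the DMS. The UNT mean was nearer to L-DOPA at 47 and nearer to L-DOPA + R at 52 of them, and it lay between the group means at 68. The UNT range overlapped the L-DOPA range alone at 35 (35.4%), the L-DOPA + R range alone at 32 (32.3%), both at 17 (17.2%) and neither at 15 (15.2%). Among the 2953 CpGs at which the treated groups were apart by 20 points or more without overlap, these shares were 37.0, 22.8, 33.8 and 6.37%, and the UNT mean lay between the group means at 79.5%, against 68.7% of the DMS. Without sites 46 to 50 bases past a cytosine, near the end of the 50-base reads, the UNT mean was nearer to L-DOPA at 37 and to L-DOPA + R at 36 of 73 DMS. These are counts without a test.

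The spread between UNT rats was wide at the DMS. Their median range was 16.9 points, against 5.70 points in L-DOPA and 8.42 points in L-DOPA + R, groups in which a small range favoured the call. Over 86458 CpGs with a mean of 20 to 80% the median range was 14.5 points in UNT rats, 16.7 points in L-DOPA rats and 18.8 points with Riluzole. At 28 of the 99 DMS the UNT rats lay 30 points or more apart, and 9.42% of the 86458 CpGs had such a range. At the 85 DMS present in all 18 striata, the median distance was 3.76 points between the sides of a UNT rat and 6.01 points between the lesioned striata of 2 UNT rats. At CpGs with a mean of 20 to 80% these were 7.92 and 8.29 points. At 22 of the 85 DMS the UNT rats were 30 or more points apart, and at 19 of these both striata of every UNT rat lay within 20 points of each other. A like pattern was seen at chr11:3834040, which was not among the 85 because L-DOPA + R control replicate 3 lacked it. There the UNT lesioned striata had 98.2, 95.5 and 3.23% and the UNT control striata 100, 100 and 2.70%, while L-DOPA + R was at 0% and L-DOPA at 61.1, 58.3 and 64.3%. At chr1:77422220 they had 99.2, 98.4 and 49.2% and 98.8, 96.7 and 50.6%, with L-DOPA + R at 95.6, 95.5 and 96.3% and L-DOPA at 40.5, 43.8 and 51.2%. At both sites the untreated rats differed from each other by about as much as the treated groups or more. Each rat received 1 treatment, so a difference between rats and an effect of the treatment cannot be told apart beyond the spread of the 3 rats in a group.

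**Figure D4:**
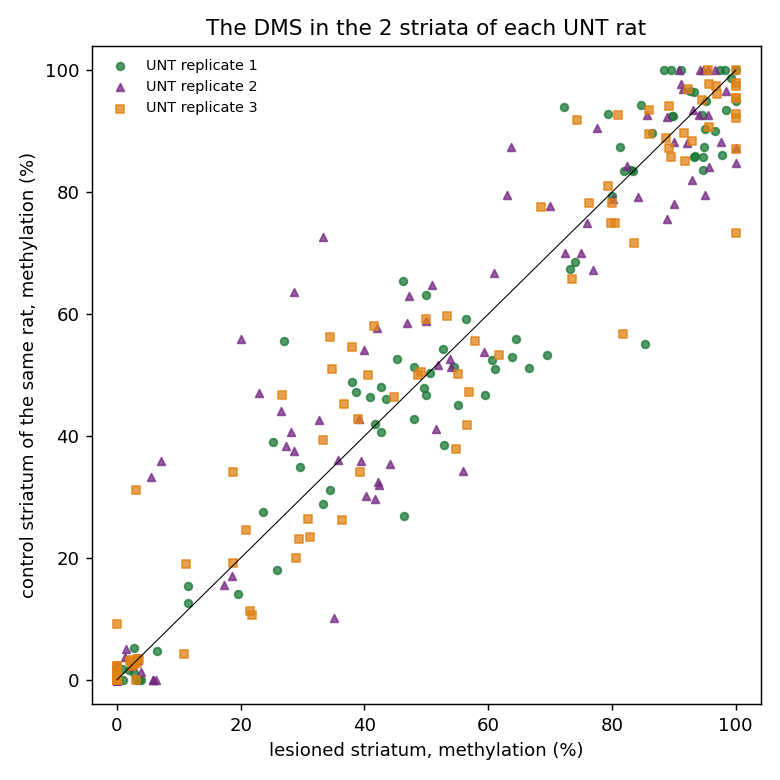
Methylation in percent of the DMS in the lesioned (x axis) and the control striatum (y axis) of each of the 3 UNT rats, one symbol for each rat. Points lie along the line of equal levels, with a median of 3.76 points between the sides of a rat at the 85 DMS present in all 18 striata.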

How the data were processed

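RRBS of 3 L-DOPA + R and 3 L-DOPA lesioned striata was compared, with the control striata of the same rats and the UNT striata beside it. The tools of the authors were FastQC 0.10.0 for read quality, Trim Galore 0.4.0 in RRBS mode for adapters, Bismark 0.14.3 for mapping of 50-base reads on rn6, and methylKit 1.8.0 for the calls. Libraries were pooled before bisulfite treatment, and which striata shared a pool is not given in the sources used here. The count of reads at each cytosine was deposited by the authors without normalization or minimum. The methylated percent of those reads was deposited by the authors with 2 decimals, and whole methylated reads were rebuilt from both.

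Computations were done in Python 3.11.15 (scipy 1.17.1, numpy 2.4.6, pandas 2.3.3) and with limma 3.58.1 in R 4.3.3. Cytosines with at least 10 reads were kept in each striatum, both strands of a CpG were added up, and CpGs present in all 6 striata were tested. The test follows methylKit: a logistic model for each CpG, with an overdispersion of at least 1 from the Pearson residuals, a chi-square test and Benjamini-Hochberg adjustment over all CpGs. Summed counts give the difference. PCR copies carry no molecular identifier, and levels at 15 reads move in steps of several points. The method was tested on simulated data, where with spread between striata the chi-square test made almost as many false calls as true ones and the F test made no call.

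Named sites were DMS without overlap (the 10 lower and the 10 higher with the smallest p), the 10 largest differences, DMS of listed genes, pairs at most 100 bp apart and the 5 leading regions in each direction. Sites with a gene name, of the mitochondrion and with unequal coverage were added after their values were seen. The members and lists were chosen with earlier results of these data known. The strands kept in only one group and the division of region reads by CpGs were looked at after seeing the data. No genome or annotation of rn6 was used, so CpG islands and genomic regions of all tested CpGs were not analysed here.

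The alternatives were 20 reads, strands apart or as a term, the F test, Storey's q, limma on log2((methylated + 1)/(unmethylated + 1)), no overdispersion correction, a limit on coverage, autosomes, CpGs of 2 striata per group, cytosines near the read end left out, a replicate block and each striatum left out. Same-numbered rats of the 2 treatments did not deviate together (r from 0.00415 to 0.0103 across CpGs with a mean of 20 to 80%). The lesioned and control striata with a number are taken as the same rat from the labels, and each of the 6 lesioned striata correlated best with its own number (r from 0.0541 to 0.128).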

Additional observations from a re-analysis of the deposited data

Results flagged for a closer look

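At 2 CpGs the difference between L-DOPA + R and L-DOPA differed between the lesioned and the control side in the interaction test. At chr2:221536698, a DMS, the lesioned striata had 38.9, 46.2 and 51.4% in L-DOPA + R against 0% in each L-DOPA rat, a difference of 45.5 points. The control striata had 32.5, 9.68 and 26.8% against 10, 32.4 and 26.3%, a difference of -1.16 points. The forward strand of the lesioned side was kept in L-DOPA + R alone, at 100%, and the shared reverse strand had 3.23% against 0%.

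At chr18:24760589, which was not a DMS, the lesioned striata had 76.5, 71.4 and 80% in L-DOPA + R against 95.5, 100 and 89.5% in L-DOPA, a difference of -18.4 points. The control striata had 100% in each L-DOPA + R rat against 79.2, 81.2 and 70.6%, a difference of 22.8 points. Both had q = 0.00869 in the chi-square test of the logistic model, which takes the striata of a rat as independent. With a term for each rat they had q = 0.00575 and 0.00334 in the same test, and 3 further CpGs were called, none of them a DMS. In 12 fits that each left out a striatum, the former was called in 3 and the latter in 1, and the F test called neither.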

How the results depend on the processing

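A minimum of 20 reads left 108382 CpGs, with 58 DMS (32 lower, 26 higher) and 29 regions, and 37 of the 39 DMS that could still be tested were called. The F test called 0 DMS (0 lower, 0 higher), 0 regions and 0 interactions, where 4488 CpGs (1.19%), 1080 regions (2.16%) and 8770 CpGs (2.89%) had an unadjusted p under 0.05. limma called 7 DMS (2 lower, 5 higher). Without the overdispersion correction 729 DMS (360 lower, 369 higher), 790 regions and 34 interactions were called. Regions of at least 5 CpGs gave 17 calls, and reads divided by CpGs gave 1. Leaving out a striatum gave 102 to 187 DMS, 50 to 108 lower and 47 to 79 higher, 63 to 157 regions, 0 to 3 interactions and a mean difference of -1.01 to -0.389 points. The upper ends for DMS and regions came without L-DOPA + R replicate 3. Without L-DOPA replicate 2 there were 166 DMS (87 lower, 79 higher) and 134 regions. No interaction was called without any single L-DOPA + R lesioned striatum, without L-DOPA + R control replicate 3, or without L-DOPA control replicate 2 or 3; without L-DOPA lesioned replicate 1 or L-DOPA control replicate 1 there was 1. Interactions with 20 reads were 1.

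With the replicate block 289 DMS (151 lower, 138 higher) and 156 regions were called, and with a term for each rat as the block 5 interactions; between treatments the numbers do not pair rats. Storey's q, each strand on its own, the coverage limit, autosomes, 2 of 3 striata, the strand term and leaving out cytosines near the read end gave 77 to 135 DMS, with more lower than higher in each. The site chr6:54997640 turned to 0.87 points with 20 reads and to 0.435 points with the strand as a term. The coverage of 15 to 17 reads limits what a single striatum can show.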
